A study of Mus musculus with 2 samples.

Results

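The EGR zinc finger factors Egr1, Egr2 and Egr3, the EGR corepressor Nab2, the E protein inhibitor Id3, the NR4A nuclear receptors Nr4a1, Nr4a2 and Nr4a3, and the immediate-early genes Junb and Ier2 are switched on early after a signal through the T cell receptor (TCR). These 10 genes were chosen by name and matched by mouse Entrez ID, and all 10 are among the 12029 of 24532 gene IDs that had a level of 1 TPM or more (a unit scaled by transcript length and to the same sum in each library) in either library. RNA was measured in CD69+ double-positive (DP) thymocytes, the T cell precursors that carry both CD4 and CD8 and have gained CD69, sorted from mice of the C57BL/6 strain, aged 6 weeks. The data are 2 libraries, 1 labelled KO, from NSRP1f/fCD4Cre mice, in which the Cre driven by Cd4 sequences is meant to delete the floxed Nsrp1 alleles from the DP stage on, and 1 labelled wild-type, from NSRP1f/f mice, which have both floxed alleles and no Cre. Nsrp1 encodes NSrp70, a protein of nuclear speckles linked to alternative splicing, and the design compares gene expression with and without it. The sources used here do not give how many animals were pooled for a library.

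Several facts of the libraries bear on every value below. Nsrp1 itself had 29.6 TPM in the library labelled KO and 29.7 TPM in the library labelled wild-type, so its RNA level goes against the KO label. The ratio was 0.996 (0.897 to 1.11) at its last exon and 0.999 (0.807 to 1.24) over its other exons. The labels do not name the floxed exon, and a deletion with no effect on RNA level would not be seen in these values. Every direction here is between libraries and not assigned to a loss of Nsrp1. Aligned reads on annotated exons summed to 5076 megabases in the library labelled KO and 4199 megabases in the library labelled wild-type. These sums count a base as often as it was read. With 1 library a group there is no replicate check and no test: the 95% intervals given after values (exact Poisson for a level, exact binomial for a ratio) cover counting error only. RNA from both sexes was present in both libraries in different proportions, with Xist (expressed in females) at 76.3 TPM and Ddx3y (on the Y chromosome) at 71.2 TPM in the library labelled KO, against 202 and 31.1 TPM in the library labelled wild-type, so genotype and sex cannot be told apart. The markers of the labelled cells were high, with Cd4 at 663 TPM and Cd8a at 1151 TPM in the library labelled KO, against 725 and 1138 TPM in the library labelled wild-type. In bulk RNA, fewer cells of a type and less RNA per cell cannot be told apart.

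As background, the TCR reaches these genes by a few routes. ERK kinases act through SRF and its ternary complex partners on serum response elements of the EGR genes. Calcium signals act through MEF2 factors, and cyclic AMP response element (CRE) binding proteins also contribute, at the NR4A promoters. EGR proteins are needed for efficient positive selection of DP thymocytes, they induce Nab2, which feeds back as their corepressor, and they induce Id3, which holds E proteins in check. Nr4a1, also known as Nur77, is widely used as a reporter of TCR signal strength and, with Nr4a3, is linked to the death of thymocytes that bind self ligands strongly.

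Promoter windows are shown for genes whose levels are compared below, to give the sequence before their starts and the letters of a few known promoter elements in it. The windows are the 250 bases before an annotated start in RefSeq on GRCm38.p6, written 5′ to 3′ on the strand of the gene. Capitals mark TGACG, the CRE core, the SRF-binding CArG box, GCGNGGGCG, an EGR-type box, and TATAA, each searched on both strands. The windows are Nr4a1 at chr15:101266596-101266845 (plus strand), Nr4a3 at chr4:48045055-48045304 (plus), Nr4a2 at chr2:57124004-57124253 (minus, before its distal start), Egr2 at chr10:67537619-67537868 (plus) and Junb at chr8:84978749-84978998 (minus).
Nr4a1: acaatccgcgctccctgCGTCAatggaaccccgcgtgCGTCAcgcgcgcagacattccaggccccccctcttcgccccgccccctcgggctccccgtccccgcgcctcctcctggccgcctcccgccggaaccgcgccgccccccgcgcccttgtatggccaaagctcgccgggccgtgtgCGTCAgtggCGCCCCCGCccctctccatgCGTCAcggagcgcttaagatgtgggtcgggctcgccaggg
Nr4a3: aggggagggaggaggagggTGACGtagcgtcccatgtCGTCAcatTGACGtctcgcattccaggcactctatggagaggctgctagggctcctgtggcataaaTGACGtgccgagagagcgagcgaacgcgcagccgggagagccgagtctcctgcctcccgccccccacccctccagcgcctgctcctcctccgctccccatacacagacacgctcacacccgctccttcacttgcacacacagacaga
Nr4a2: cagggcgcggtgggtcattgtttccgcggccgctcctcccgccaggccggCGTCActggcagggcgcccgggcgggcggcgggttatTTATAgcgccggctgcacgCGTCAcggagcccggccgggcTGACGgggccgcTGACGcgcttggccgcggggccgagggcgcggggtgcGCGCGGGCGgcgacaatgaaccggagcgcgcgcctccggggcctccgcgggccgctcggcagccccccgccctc
Egr2: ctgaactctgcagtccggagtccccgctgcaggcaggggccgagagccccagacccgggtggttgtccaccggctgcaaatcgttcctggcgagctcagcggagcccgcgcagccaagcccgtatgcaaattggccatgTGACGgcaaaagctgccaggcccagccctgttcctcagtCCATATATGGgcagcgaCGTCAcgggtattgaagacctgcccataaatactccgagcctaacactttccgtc
Junb: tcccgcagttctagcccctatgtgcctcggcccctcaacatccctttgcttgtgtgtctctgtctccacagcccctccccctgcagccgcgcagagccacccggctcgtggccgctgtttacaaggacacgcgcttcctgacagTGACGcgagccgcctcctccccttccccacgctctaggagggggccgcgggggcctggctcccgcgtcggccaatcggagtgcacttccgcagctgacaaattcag

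Windows were searched before 8 starts of 7 of the 10 genes (Egr2 with 2 starts, Nab2, Id3, Nr4a1, Nr4a2, Nr4a3 and Junb). Egr1, on chromosome 18, was left out of this search, and Egr3 and Ier2 had no window, so the counts do not cover them. TGACG was in 7 of these 8 windows, all but that of Nab2, against 17.8% of 32851 windows of the same length before annotated starts. The 2 Egr2 windows overlap and hold the same matches except for TATAA, so they are not separate cases. The 3 NR4A windows each held 4 matches, and 0.137% of all windows (45) held 4 or more. This cut equals the count in the NR4A windows, and the 45 include these 3, so the share is a description and no test. The CArG box was in both overlapping Egr2 windows, against 1.47% of all windows. In the window shown its last base lay 63 bases before the annotated start. GCGNGGGCG was in the windows of Nr4a1 and Nr4a2, against 4.70% of all, and the complete CRE, TGACGTCA, which contains this core on both strands, was in 0 of the 8. TATAA was in 3 of the 8 windows (Id3, Nr4a2 and the Egr2 window that is not shown), against 22.8% of all. GGAAA, the core of NFAT sites, which is not marked in capitals, was in 3 of the 8, against 55.6% of all. No MEF2 site was searched. These matches describe letters and not bound sites.

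All of these genes except Nr4a2 and Egr3 were expressed well above the typical gene, and none differed greatly between the libraries. With a threshold of 1 on the log2 fold change, computed from TPM + 1, 0 of the 10 were higher and 0 lower in the library labelled KO, where 0.657% of all measured genes were higher and 1.37% lower. The threshold is about size only and is no test. At a smaller size of 0.5, 1 of the 10 (Nr4a2, lower) was past it, against 9.78% of all genes. Without the last exon Egr3 (-0.82) was past this size too. That value rests on 27.0 read pairs in the library labelled KO and 38.2 in the library labelled wild-type. The median over all genes was then -0.14, and the share of all genes past 0.5 was not computed for that setting. The median log2 fold change was -0.04 over the 10 genes and -0.07 over all measured genes, and 8 of the 10 lay within 0.2 of 0, as did 56.3% of all genes. By counting error alone the ratio was below 1 for 6 genes (Egr1, Egr3, Nab2, Id3, Nr4a1 and Nr4a2), above 1 for Egr2 and Junb, and not distinguished from 1 for Nr4a3 and Ier2. The share of all genes on each side by this rule was not computed. A ratio below 1 was the more common case, as 38.5% of all genes had a log2 fold change above 0. The median log2 ratio of all genes was -0.08, and Nab2 (-0.05) and Nr4a1 (-0.03) lay above it. The small differences of Nab2 and Nr4a1 had the other sign when FPKM, the authors' other per-length unit, replaced TPM (0.05 and 0.07 on the log2 scale) and when the libraries were rescaled by the median ratio of all genes (0.03 and 0.04).

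**Figure D1:**
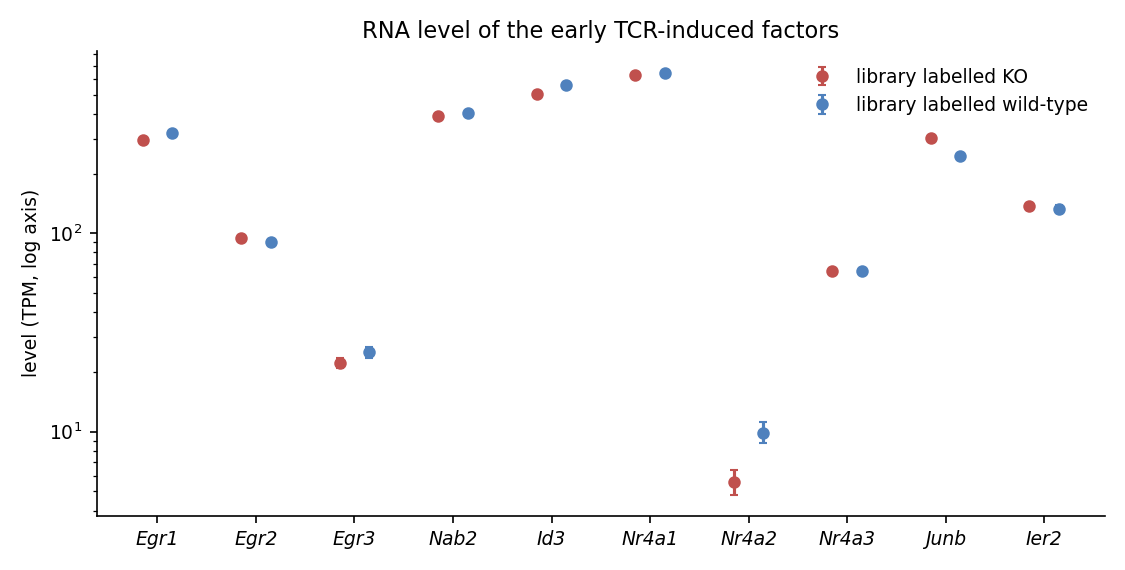
Level of each of the 10 genes in TPM (log axis) in the library labelled KO (red) and the library labelled wild-type (blue). Points are single libraries and bars are 95% Poisson intervals of counting error. The paired points lie close together from Nr4a1, with 626 TPM in the library labelled KO and 640.3 TPM in the library labelled wild-type, down to Nr4a2, where the red point lies below the blue one (5.57 against 9.89 TPM).

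**Figure D2:**
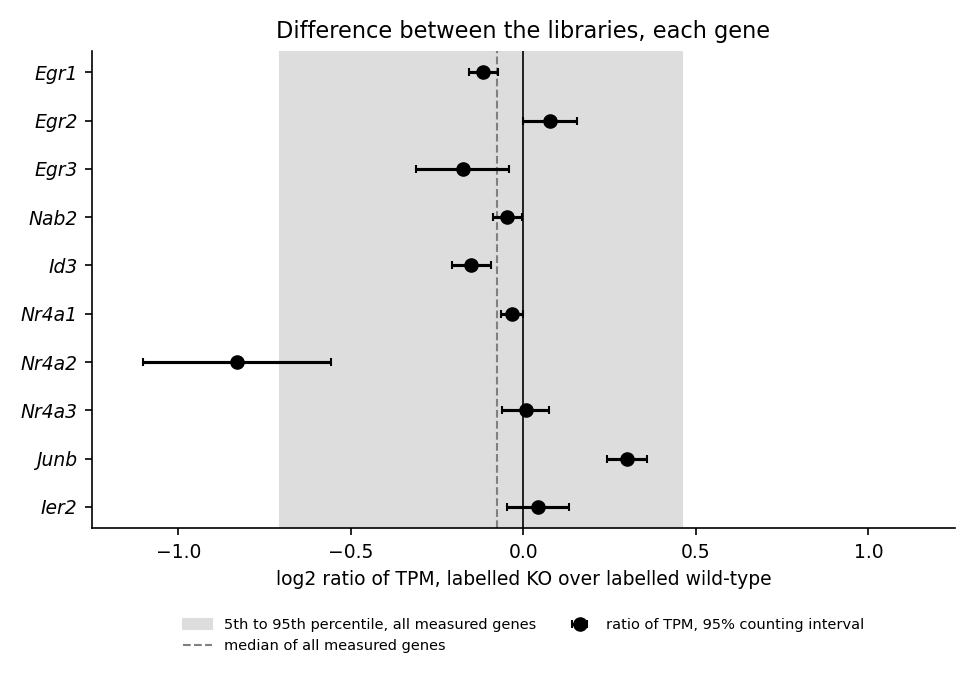
Log2 ratio of TPM, library labelled KO over library labelled wild-type, for each of the 10 genes, with 95% binomial intervals of counting error. The grey band holds the 5th to 95th percentile of all 12029 measured genes (-0.71 to 0.46) and the dashed line is their median (-0.08). Only the point of Nr4a2 (-0.83) lies outside the band, and its interval reaches into it.

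The EGR factors, which activate early response genes through a shared GC-rich site, kept the same order in both libraries. Egr1 (gene ID 13653, chromosome 18, 34861207 to 34864956, plus strand, mm10) had 295 TPM (between 289 and 301) in the library labelled KO and 320 TPM (between 313 and 327) in the library labelled wild-type, a ratio of 0.923 (0.896 to 0.950). Egr2 (13654, chromosome 10, 67537869 to 67542188, plus) had 95.05 TPM (between 91.8 and 98.4) in the library labelled KO and 90.0 TPM (between 86.4 and 93.8) in the library labelled wild-type, a ratio of 1.06 (1.00 to 1.11). Egr3 (13655, chromosome 14, 70077445 to 70082613, plus) had 22.2 TPM (between 20.8 and 23.6) in the library labelled KO and 25.1 TPM (between 23.4 and 26.8) in the library labelled wild-type, a ratio of 0.885 (0.806 to 0.972). The library labelled KO was thus slightly lower in Egr1 and Egr3 and slightly higher in Egr2, and the level intervals of Egr2 overlap. Egr1 made up most of the EGR RNA, with 71.6% of the summed TPM of the family in the library labelled KO and 73.5% in the library labelled wild-type. Egr2, the member most often tied to NKT cell development and tolerance, held 23.1% in the library labelled KO and 20.7% in the library labelled wild-type.

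Nab2, which binds EGR proteins and represses their targets, was near the summed level of the EGR genes (412 TPM in the library labelled KO and 435 TPM in the library labelled wild-type). Nab2 (17937, chromosome 10, 127660918 to 127666703, minus) had 389 TPM (between 382 and 397) in the library labelled KO and 402 TPM (between 393 and 410.4) in the library labelled wild-type, a ratio of 0.969 (0.941 to 0.997). Id3 (15903, chromosome 4, 136143822 to 136145392, plus), which blocks E proteins from binding DNA, had 505 TPM (between 492 and 519) in the library labelled KO and 561 TPM (between 545 and 577) in the library labelled wild-type, a ratio of 0.901 (0.866 to 0.937). Both were slightly lower in the library labelled KO, and their level intervals overlap for Nab2 but not for Id3. The Nab2 value is less certain than the others. Its last exon shares 70 bases with Stat6 on the other strand, which stood at 204 TPM in the library labelled KO and 234 TPM in the library labelled wild-type. In addition 34.9% of its 50-base words also occur in other GENCODE M21 transcripts, chiefly Gm16229, annotated at the same place, and the sources used here do not state whether counting used strand.

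Among the NR4A receptors, which act without a known physiological ligand and are controlled mainly by how much of them is made, only Nr4a2 stood apart. Nr4a1 (15370, chromosome 15, 101266846 to 101274794, plus) had 626 TPM (between 617 and 635) in the library labelled KO and 640.3 TPM (between 629.7 and 651) in the library labelled wild-type, a ratio of 0.977 (0.956 to 0.9996). Nr4a3 (18124, chromosome 4, 48045305 to 48086446, plus) had 64.6 TPM (between 62.6 and 66.7) in the library labelled KO and 64.3 TPM (between 62.1 and 66.7) in the library labelled wild-type, a ratio of 1.00 (0.958 to 1.05). For both, the libraries were almost level. Nr4a2 (18227, chromosome 2, 57107226 to 57124003, minus), which is better known for its role in dopamine neurons, had 5.57 TPM (between 4.81 and 6.40) in the library labelled KO and 9.89 TPM (between 8.74 and 11.1) in the library labelled wild-type. Its ratio was 0.563 (0.466 to 0.679) and its log2 fold change was -0.73, and 2.55% of all measured genes had a lower one. The Nr4a2 intervals do not overlap, but the values rest on about 197 read pairs in the library labelled KO and 267 in the library labelled wild-type. Of the summed TPM of the family, Nr4a1 held 89.9% in the library labelled KO and 89.6% in the library labelled wild-type, and Nr4a2 held 0.800% in the library labelled KO and 1.38% in the library labelled wild-type. The family sum was 696 TPM in the library labelled KO and 715 TPM in the library labelled wild-type.

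Junb, a subunit of the AP-1 factor, showed the clearest higher level in the library labelled KO. Junb (16477, chromosome 8, 84976909 to 84978748, minus) had 301 TPM (between 293 and 308) in the library labelled KO and 244 TPM (between 236 and 252) in the library labelled wild-type, a ratio of 1.23 (1.18 to 1.28) and a log2 fold change of 0.30. Of all measured genes 7.30% had a higher one. Ier2 (15936, chromosome 8, 84661331 to 84662852, minus), a nuclear protein induced within minutes of growth signals, had 137 TPM (between 131 and 142) in the library labelled KO and 133 TPM (between 127 and 139) in the library labelled wild-type, a ratio of 1.03 (0.967 to 1.10). The Junb intervals lie apart and the Ier2 intervals overlap. Both genes consist of a single exon, and 5.76% of the 50-base words of Junb are shared with transcripts of its neighbour Prdx2.

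The genes span about 2 orders of magnitude, and their order by level was almost the same in both libraries. In each it ran Nr4a1, Id3, Nab2, then Egr1 and Junb, then Ier2, Egr2, Nr4a3, Egr3 and Nr4a2. Junb lay above Egr1 in the library labelled KO, where their intervals overlap, and below it in the library labelled wild-type, where they do not. The intervals of every other pair of neighbours lay apart within each library. In the library labelled KO, 98.4% of all measured genes lay below Nr4a1, 44.3% below Egr3 and 20.8% below Nr4a2. In the library labelled wild-type these shares were 98.4%, 45.6% and 28.0%. There were 6 of the 10 genes (Egr1, Nab2, Id3, Nr4a1, Junb and Ier2) at 100 TPM or more in both libraries.

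Depth along the genes showed a slope that the gene levels do not. Exon depth is given here as TPM-equivalents, the authors' coverage of an exon scaled by the library's ratio of TPM to coverage. Across Nr4a1, the ratio of depth, library labelled KO over library labelled wild-type, was 0.737 (0.617 to 0.881) at the first exon, 0.868 (0.835 to 0.902) at the second, between 0.947 and 1.01 at exons 3 to 6, and 1.12 (1.08 to 1.16) at the last. The first exon of Nr4a1 had 175 TPM-equivalents in the library labelled KO and 238 in the library labelled wild-type, and the last had 688 in the library labelled KO and 614 in the library labelled wild-type. So the near-equal level of Nr4a1 combines a lower 5′ end and a higher 3′ end in the library labelled KO.

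Nr4a3 showed the steepest such slope among the 6 of these genes that had at least 100 read pairs in each part. Its depth ratio was 0.749 (0.609 to 0.922) at the first exon, with 40.2 TPM-equivalents in the library labelled KO and 53.7 in the library labelled wild-type, and 1.15 (1.09 to 1.23) at the last, with 69.7 in the library labelled KO and 60.4 in the library labelled wild-type. Taking the last exon against all others, the log2 ratio of Nr4a3 was 0.21 at the last exon and -0.32 over the others, a gap larger than that of 94.6% of genes. Egr1 was lower at its first exon, with a depth ratio of 0.747 (0.688 to 0.812), than at its last, with 0.951 (0.922 to 0.980). Nab2 likewise had 0.875 (0.781 to 0.980) at its first exon and 1.10 (1.05 to 1.15) at its last. From first to last exon, Id3, with 0.883 (0.828 to 0.941) and 0.910 (0.862 to 0.962), and Egr2, with 1.03 (0.871 to 1.23) and 1.06 (1.00 to 1.12), were nearly flat.

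A slope in the same direction was seen at most genes. Over the 6804 genes with at least 100 read pairs in both parts, the last exon had the higher log2 ratio in 85.4%, and the median gap between the last exon and the rest was 0.20. The 6 genes described here that met this minimum (Egr1, Egr2, Id3, Nab2, Nr4a1 and Nr4a3) all had the higher ratio at the last exon, with a median gap of 0.30. Without the last exon the median log2 fold change over the 8 multi-exon genes was -0.24, against -0.14 over all genes, and on the last exon alone it was 0.06 over the 10 genes, against 0.02 over all genes. The directions given for Nab2, Nr4a1 and Nr4a3 therefore depend on which end of the transcript is read. Whether RNA quality or library preparation differed between the samples was not tested.

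The depth ratio of Nr4a2 was below 1 at each exon with at least 10 read pairs over both libraries. Several of the intervals hold 1, that of the last exon among them. Outside the last exon its depth was 4.57 TPM-equivalents in the library labelled KO and 9.96 in the library labelled wild-type, a ratio of 0.459 (0.355 to 0.590), and at the last exon it was 7.23 in the library labelled KO and 9.38 in the library labelled wild-type, a ratio of 0.770 (0.574 to 1.03). Its exon of 866 bases, the longest before the last, had 42.2 read pairs in the library labelled KO and 84.8 in the library labelled wild-type, a ratio of 0.386 (0.260 to 0.564). Egr3 also had a low ratio at its first exon, 0.534 (0.299 to 0.941), from 22.6 read pairs in the library labelled KO and 32.9 in the library labelled wild-type.

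**Figure D3:**
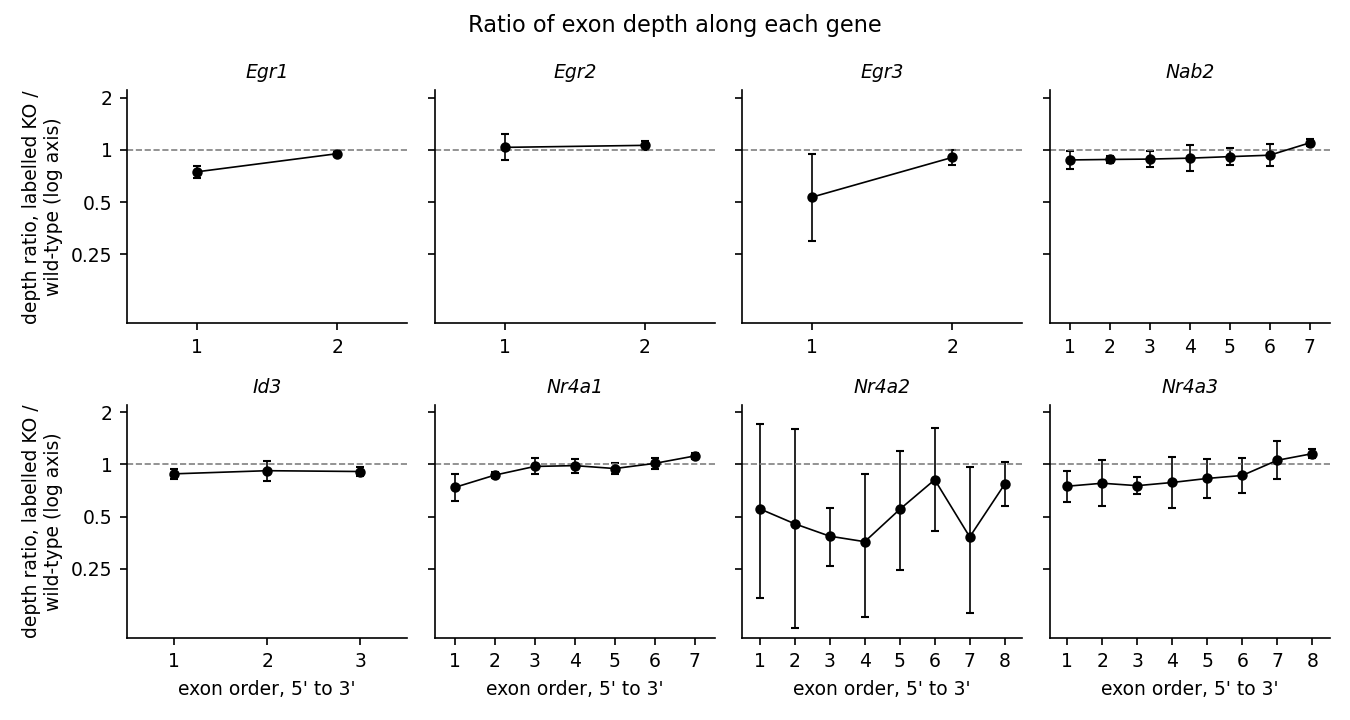
Depth ratio (library labelled KO over library labelled wild-type, log axis) for each exon with at least 10 read pairs over both libraries, in order from 5′ to 3′, with 95% binomial intervals of counting error. The ratio climbs along Nr4a1 from 0.737 to 1.12 and along Nr4a3 from 0.749 to 1.15, and lies below 1 at every plotted exon of Nr4a2.

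Because NSrp70 is linked to splicing, the annotated transcripts of these genes were compared as well. There were 5 genes with a single annotated transcript (Egr1, Id3, Nr4a1, Junb and Ier2) and 5 with several. Nab2 held the only alternative exon with many reads. Its transcript of 7 exons, NM_008668, had 158 TPM (40.7% of the gene) in the library labelled KO and 171 TPM (42.4%) in the library labelled wild-type. Its transcript of 6 exons, NM_001122895, had 231 TPM in each. The 2 transcripts differ by a wholly coding exon of 192 bases (64 codons, so the reading frame is kept when it is skipped), at chr10:127662731-127662922 on the minus strand of GRCm38, and it is shown in full because it is the splicing choice these data can measure.
Nab2 exon of 192 bases: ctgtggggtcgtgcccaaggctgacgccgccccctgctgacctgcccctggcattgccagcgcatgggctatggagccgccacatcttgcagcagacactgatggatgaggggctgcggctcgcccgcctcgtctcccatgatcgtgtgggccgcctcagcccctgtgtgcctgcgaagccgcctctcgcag

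This Nab2 exon was included to about the same extent in both libraries. It had 412 read pairs in the library labelled KO and 343 in the library labelled wild-type, and its depth was 40.2% of the mean of the exons on either side in the library labelled KO and 43.0% in the library labelled wild-type. The depth ratio of the exon was 0.932 (0.805 to 1.08), between the 0.914 of the exon before it and the 1.10 of the exon after it. The exon has 68.8% G and C.

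The other differences in transcript share rested on almost no reads. The authors' table gave the Egr3 transcript NM_001289925 37.8% of the gene's TPM in the library labelled KO and 5.78% in the library labelled wild-type. The exon of 53 bases that only this transcript holds had 2.70 read pairs in the library labelled KO and 3.06 in the library labelled wild-type, too few to measure its share. Similarly, the Nr4a2 transcript NM_001139509, which begins at the distal start, was given 0% of the gene's TPM in the library labelled KO and 31.4% in the library labelled wild-type. Its own first exon of 175 bases had 0 read pairs in the library labelled KO and 0.0792 in the library labelled wild-type, below the floor of 3 read pairs, so use of the distal start, whose window is shown above, was not detectable at this depth. The minor transcripts of Egr2 (NM_001347458, 0% in the library labelled KO and 1.97% in the library labelled wild-type) and Nr4a3 (NM_001307989, 1.83% in the library labelled KO and 1.54% in the library labelled wild-type) held little of either gene.

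**Figure D4:**
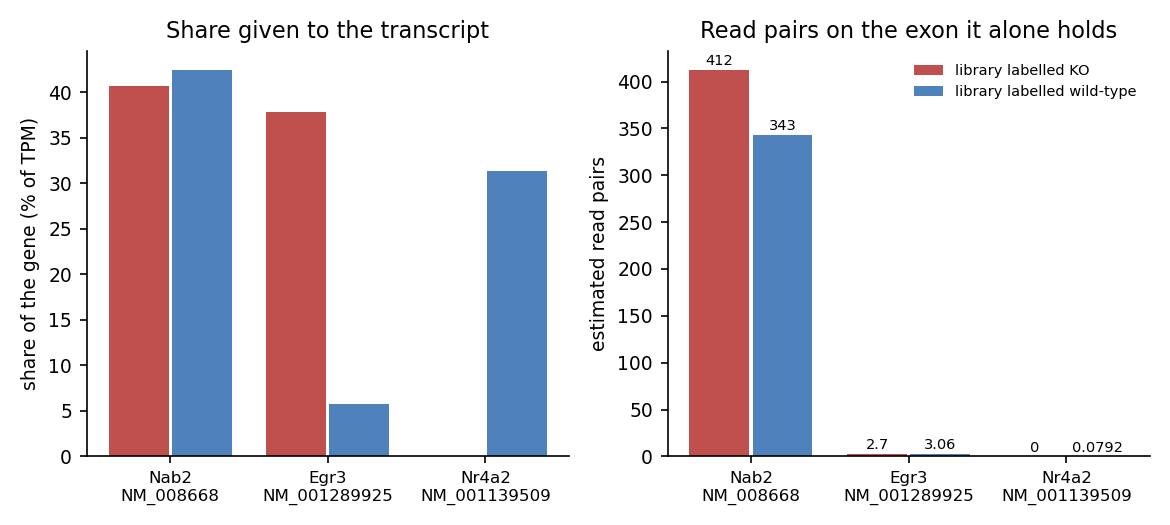
Left, share of the gene's TPM that the authors' table gives to 1 transcript each of Nab2, Egr3 and Nr4a2 in the library labelled KO (red) and the library labelled wild-type (blue). Right, estimated read pairs on the exon that only that transcript holds. The shares of Egr3 (37.8% against 5.78%) and Nr4a2 (0% against 31.4%) differ widely while their own exons hold about 3 read pairs or fewer, and the Nab2 exon holds 412 in the library labelled KO and 343 in the library labelled wild-type.

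The genes that act with these factors were described from 6 lists, and none of the lists moved as a block past the fold. Of 19 measured AP-1 and other immediate-early genes 0 were higher and 1 was lower, with a median log2 fold change of -0.05. Fosl2, an AP-1 subunit of the FOS family, had 3.40 TPM in the library labelled KO and 9.03 TPM in the library labelled wild-type (-1.19). Klf6, a zinc finger factor, had 36.0 TPM in the library labelled KO and 54.7 TPM in the library labelled wild-type (-0.59). The highest were Zfp36, whose protein speeds the decay of AU-rich mRNAs, with 252 TPM in the library labelled KO and 211 TPM in the library labelled wild-type (0.25), followed by Klf10 (0.11). Of the partners of Junb in AP-1, Fos had 85.8 TPM in the library labelled KO and 89.5 TPM in the library labelled wild-type, a ratio whose interval holds 1 (0.897 to 1.02).

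The list of ERK phosphatases and feedback inhibitors held 11 genes, several of which dampen the ERK signal that drives the EGR genes. Of these 11 genes 0 passed the fold in either direction and the median was 0.10, which was -0.19 without the last exon. The highest was Spry2, with 6.28 TPM in the library labelled KO and 4.66 TPM in the library labelled wild-type (0.36). Next was Dusp1, with 123 TPM in the library labelled KO and 101 TPM in the library labelled wild-type (0.29). Dusp4 (-0.37) and Spred2 (-0.22) were the lowest. Of 10 measured corepressors and dimer partners, among them the E proteins that Id3 binds, 1 was higher and 0 were lower, with a median of 0.02, which was -0.12 without the last exon. The higher one was Batf3, with 1.41 TPM in the library labelled KO and listed at 0 in the library labelled wild-type. Id2 and Batf were the highest of those with at least 5 TPM (0.19 each) and the E protein genes Tcf4 (-0.20) and Tcf12 (-0.14) the lowest.

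Of 21 measured regulators upstream of these genes 0 passed the fold, 18 lay below 0 and the median was -0.16, against -0.07 over all genes, of which 38.5% lay above 0. The median of this list was -0.06 with FPKM, -0.08 after rescaling by the median ratio, -0.35 without the last exon and -0.02 on the last exon alone. Elk4, an SRF partner that acts at EGR promoters, had 79.3 TPM in the library labelled KO and 129 TPM in the library labelled wild-type (-0.70). Mef2d, which binds the Nr4a1 promoter, had 159 TPM in the library labelled KO and 227 TPM in the library labelled wild-type (-0.52). Nfatc1 (0.30) and Atf1 (0.10) were the highest. The direction of Nfatc1 differed by part of the gene. At the last exon of its most abundant transcript the depth ratio was 7.99 (7.11 to 8.99). That exon had 116 TPM-equivalents in the library labelled KO and 14.5 in the library labelled wild-type. Over its other exonic bases the ratio was 0.762 (0.730 to 0.794). Of 18 other genes induced by TCR signals in thymocytes 0 passed the fold, with a median of -0.02, which was -0.17 without the last exon and 0.13 on the last exon alone. Itm2a, with 1830 TPM in the library labelled KO and 1347 TPM in the library labelled wild-type (0.44), was the highest, followed by Nfatc1. The lowest were Rel, an NF-kB subunit, with 21.8 TPM in the library labelled KO and 35.7 TPM in the library labelled wild-type (-0.69), followed by Cblb (-0.39). Cd69, the marker used to sort the cells, had 522 TPM in the library labelled KO and 430 TPM in the library labelled wild-type.

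Immediate-early genes also respond to the handling of tissue, so a list of dissociation and heat shock genes was set beside them. Of its 16 measured genes 3 were past the threshold, all lower in the library labelled KO, and the median was -0.17. The genes of this list other than the heat shock genes are also in the lists above, so its median is not separate from theirs. Hspa1a had 0.525 TPM in the library labelled KO and 467 TPM in the library labelled wild-type, Hspa1b had 0.558 TPM in the library labelled KO and 493 TPM in the library labelled wild-type. Hsph1 had 68.0 TPM in the library labelled KO and 147 TPM in the library labelled wild-type. The highest were Dusp1 and Zfp36. The remaining heat shock genes of the list were all lower in the library labelled KO as well. Hsp90aa1 had 319 TPM in the library labelled KO and 580 TPM in the library labelled wild-type (-0.86). The log2 fold change was -0.41 for Hspe1, -0.25 for Hspa8 and -0.18 for the co-chaperone gene Dnajb1. The part of these genes' difference in the levels of the 10 was not tested. Some markers of other cells were also present. Summed levels in the library labelled KO, against the library labelled wild-type, were 61.0 and 53.0 TPM for B cells (4 of 5 markers measured), 66.3 and 83.0 TPM for dendritic cells and macrophages (6 of 8), 90.6 and 69.9 TPM for NK and innate-like T cells (5 of 5, led by Nkg7 with 52.4 and 35.2 TPM, and with Zbtb16 at 0.0961 and 1.05 TPM), 37.4 and 38.4 TPM for neutrophils (3 of 4, Ly6g at 0), and 9.30 and 10.1 TPM for double-negative thymocytes (3 of 4). The sums for endothelium and fibroblasts (104 and 120.2 TPM) and for thymic epithelium (8.54 and 7.08 TPM) rest almost wholly on 1 gene each. For endothelium and fibroblasts this was Pecam1 (1 of 5 measured), with Cdh5 and Col1a1 below 1 TPM and Col3a1 and Pdgfra at 0. For thymic epithelium it was Epcam (1 of 5 measured), with Krt5, Krt8 and Foxn1 at 0. The part of other cells in the levels of the 10 genes was not tested.

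**Figure D5:**
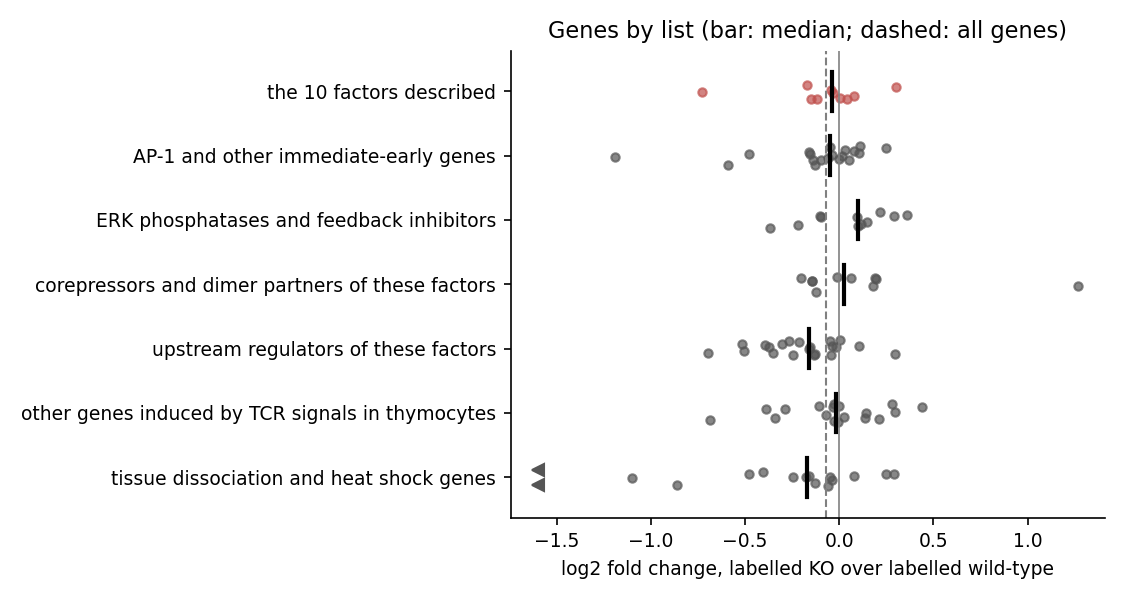
Log2 fold change of TPM + 1, library labelled KO over library labelled wild-type, for the 10 genes (red) and for the measured genes of the 6 lists (grey). Each dot is a gene, black bars are medians, the dashed line is the median of all measured genes (-0.07), and the 2 arrowheads stand for Hspa1a and Hspa1b beyond the left edge. The red dots lie within 0.31 of 0 except Nr4a2 at -0.73.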

How the data were processed

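RNA of sorted thymocytes was measured in 2 libraries, grouped by the labels. The aligner was HISAT2 and the build mm10 (GRCm38), per the submitters' processing notes. Per the file headers, transcripts of a RefSeq annotation were quantified with StringTie 1.3.3b. The sources used here give neither the HISAT2 version nor any filter on reads. The deposited tables give TPM and FPKM per gene and transcript and coverage (mean read depth per base, not scaled to library size) per gene, transcript and exon.

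Gene IDs were used as the authors gave them, and 24462 of 24532 were matched to a symbol in RefSeq's GRCm38.p6 table. TPM keeps no depth, so read pairs were estimated as aligned bases on exons divided by 202, for 2 mates of 101 bases, a length found from the multiples in low coverage values. The comparison was log2((TPM + 1) labelled KO / (TPM + 1) labelled wild-type), made for every gene of 1 TPM or more in either library and called at a size of 1 or more, which understates the difference of low genes. Levels have exact Poisson and ratios exact binomial (Clopper-Pearson) 95% intervals. Because PCR can copy a molecule, these intervals and the floor of 3 read pairs cover counting error only. The last exon of the most abundant transcript was set against the gene's other exonic bases, where each part had 100 read pairs or more. The members, the gene lists and the comparisons of exons were chosen with earlier results of these data known. Named list genes are the 2 highest and 2 lowest of each list with 5 TPM or more in either library, and any past the fold. Fos, Cd69, Dnajb1, Hspe1, Hsp90aa1, Hspa8, Nkg7, Zbtb16, Stat6, Prdx2, Gm16229, Xist, Ddx3y, the sorting markers and some markers of other cells were named beside this rule. Sequences of promoter windows are from RefSeq (GRCm38.p6) and that of the Nab2 exon from GENCODE M21 (GRCm38). Alternatives were the pseudocount, the filter, FPKM, rescaling by the median ratio or without ribosomal protein genes, and parts of the transcript. The tools were matplotlib 3.10.9, scipy 1.17.1, pandas 2.3.3 and numpy 2.4.6 under Python 3.11.15. The erythroid marker list is not reported here.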

Additional observations from a re-analysis of the deposited data

How the results depend on the processing

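The count of the 10 genes past the fold was 0 under each of the 9 alternative settings, and no gene called by the fold changed sign, since none was called. The median log2 fold change over the genes, -0.04 as reported, was 0.0596 with FPKM (0.03 over all genes), 0.0372 after rescaling by the median ratio, -0.24 without the last exon and 0.0634 on the last exon alone. It stayed near the reported value with pseudocounts of 0.1 and 5 TPM, rescaling without ribosomal protein genes, a filter of 5 TPM and no filter. The yardstick for a median was the median half-width of single-gene counting intervals, which is not the counting error of a median. Over the alternatives Egr3 ranged from -0.82 to -0.07, Nr4a2 from -0.98 to -0.34, Nr4a3 from -0.32 to 0.20, Egr1 from -0.42 to -0.02 and Junb from 0.30 to 0.40. The sign differed between alternatives for Nab2 (-0.17 to 0.13), Nr4a1 (-0.13 to 0.16) and Nr4a3. Of 180 recomputed values 141 were labelled as the same and 39 as moved. Single genes and transcript shares were judged by counting error, medians by the yardstick above and counts past the fold by equality. The 141 include the values of the 10 genes under the changed filters, which a filter cannot alter. They also include transcript shares from FPKM, which equal those from TPM by construction. All settings reuse the same reads. No paired analysis was possible because each group has 1 library. With a single library a group, no difference given here can be told apart from a difference between animals. Depth limits Nr4a2 and the first exon of Egr3 most, since they rest on few read pairs.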
